A study of Homo sapiens with 18 samples.

Results

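Imprinted genes are expressed mainly from the copy inherited from 1 parent, because DNA methylation set in the germ line marks a control region on only 1 of the copies. The genes lie in clusters, and a shared control region can act on several of them at once. H19 and IGF2 are the best known pair: the factor CTCF binds the unmethylated control region between them on the maternal copy, so that the maternal copy makes the long non-coding RNA H19 and the paternal copy makes the growth factor IGF2. Imprinted genes set fetal and placental growth, and many are expressed again or lost in tumours, ovarian carcinoma among them.

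A set of 10 such genes was followed in 18 libraries labelled as A1847, an ovarian carcinoma cell line. The set held H19, IGF2, CDKN1C, KCNQ1OT1, PHLDA2, MEG3, DLK1, PEG10, MEST and PEG3. They were taken by symbol from the 57736 genes of the count table, where all 10 had a row. The set was put together because H19 was among the genes most lowered by XBP1 knockdown in these same counts, so the knockdown values below are a description without a test. Of the 10, 7 passed the filter on low counts and were among the 17317 genes tested, and MEG3, DLK1 and PEG3 did not pass.

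The cells were of 3 genotypes: control (labelled WT), CARM1 knockout (koCARM1) and XBP1 knockdown (shXBP1). CARM1 is an arginine methyltransferase that coactivates transcription, and XBP1 encodes a transcription factor of the unfolded protein response. Each genotype received vehicle (ctr) or 5 μg/ml tunicamycin for 8 h, which blocks N-glycosylation and so loads the ER with unfolded proteins, with 3 replicates per group. The knockout rested on 1 CRISPR guide with puromycin selection and the knockdown on 1 lentiviral shRNA. Neither a clonal origin of the knockout cells nor a vector in the WT cells is stated in the labels. The labels do not say either whether replicates were separate cultures, so p-values measure only the spread between these samples. The authors deposited RSEM expected counts of 3′-end reads, and 9367462 to 13917212 counts were found per library.

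Levels are given in CPM, a library's counts divided by its TMM-normalised size. CARM1 itself fell from 162 ± 2.69 to 74.2 ± 3.11 CPM (SD, n = 3 libraries each) between control and knockout cells under vehicle, although a guide that mutates a gene need not remove its transcript. XBP1 fell from 45.9 ± 4.50 to 25.4 ± 1.25 CPM (SD, n = 3 each) in the knockdown. The knockout libraries stood apart from the rest. Their correlation of log2 CPM over all genes tested with the other libraries was 0.730 to 0.775, against 0.961 to 0.987 between control and knockdown libraries. Cell type markers moved with them too. PAX8, a marker of serous ovarian epithelium, lay at 0 to 0.166 CPM in control and 39.9 to 65.2 CPM in knockout libraries, and the summed level of the 8 epithelial and serous markers rose from 311 to 489 CPM in control to 1881 to 2340 CPM. Most of that sum was KRT18, at 254 to 416 CPM in control and 1185 to 1495 CPM in knockout libraries, and KRT8, at 54.2 to 72.0 and 627 to 760 CPM. KRT19 of the same list went from 0.335 to 3.34 CPM to 0 in every knockout library, and MUC16 was at 0 in every library. The fibroblast collagen gene COL1A2 went the other way, from 702 to 867 CPM in control to 0 to 2.70 CPM in knockout libraries, and so did the sum of the 3 fibroblast markers, from 711 to 886 to 184 to 495 CPM. COL1A1, another collagen gene of that list, rose from 8.20 to 17.3 CPM to 183 to 494 CPM and made up nearly all of what remained of the sum. The 3 leukocyte markers summed to at most 1.62 CPM in control and 5.0 to 7.15 CPM in knockout libraries, with CD3E at 0 throughout, and the endothelial markers in the table summed to at most 0.318 CPM anywhere. With these labels, an effect of CARM1 loss and any other difference of the knockout cells, their identity as the same cell line included, cannot be told apart, and the part of either in the knockout values below was not tested. In bulk RNA, fewer cells that express a gene and less RNA per cell cannot be told apart.

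In GRCh37, the build of the alignments, 5 of the 10 genes share a stretch of chromosome 11, all on the minus strand: H19 at chr11:2016396-2025782, IGF2 at chr11:2150342-2179621, KCNQ1OT1 at chr11:2618538-2721233, CDKN1C at chr11:2904443-2907005 and PHLDA2 at chr11:2949503-2950650. KCNQ1OT1, a non-coding RNA made antisense from within the KCNQ1 gene, silences CDKN1C and PHLDA2 on the paternal copy. DLK1 at chr14:101192042-101204561 and MEG3 at chr14:101245747-101327368 are neighbours on the plus strand, and PEG10 at chr7:94285637-94299007, MEST at chr7:130126012-130146306, both on the plus strand, and PEG3 at chr19:57321445-57352096, on the minus strand, belong to 3 further clusters.

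H19 and MEST also host microRNAs, and their sequences are shown because these were the 2 genes of the set with the largest falls in the knockout. The mature forms are shown 5′ to 3′ from RefSeq (GRCh38.p14), with the seed, bases 2 to 8, in capitals.
miR-675-5p, from H19: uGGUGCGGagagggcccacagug
miR-675-3p, from H19: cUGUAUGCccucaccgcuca
miR-335-5p, from MEST: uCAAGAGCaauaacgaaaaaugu
miR-335-3p, from MEST: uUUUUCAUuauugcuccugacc
No 2 of these seeds were the same. The libraries did not measure mature microRNAs, so the host counts below say nothing of their levels.

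The promoter of H19 is shown because H19 was the gene of the set that XBP1 knockdown lowered most. It runs from 250 bases before to 50 after the start (RefSeq, GRCh38.p14, chr11:2001217-2001516, minus strand, 57.7% GC), with matches to the core motifs of spliced XBP1, ACGTCA or CCACG on either strand, in capitals.
H19 promoter: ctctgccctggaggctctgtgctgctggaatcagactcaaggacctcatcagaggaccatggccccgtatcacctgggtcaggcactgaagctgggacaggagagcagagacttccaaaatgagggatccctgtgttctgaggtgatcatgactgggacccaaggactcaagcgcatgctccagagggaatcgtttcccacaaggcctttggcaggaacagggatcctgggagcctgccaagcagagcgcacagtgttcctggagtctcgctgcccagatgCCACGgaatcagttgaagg
It held 1 CCACG, 31 bases after the start, and no ACGTCA. Among all 35116 RefSeq promoters of that length, 38.1% held CCACG and 7.98% held ACGTCA. RefSeq promoters were matched for 3 of the 10 genes. The 3 MEG3 promoters each held ACGTCA on both strands, as overlapping matches that start 50 and 48 bases before the start in the first of them, and no CCACG. Of the 5 MEST promoters, 3 held CCACG and none held ACGTCA. These matches are letters in a window, and no binding was measured here.

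H19 was abundant in control cells, lower in knockdown cells and near 0 in knockout cells. Its levels in vehicle-treated control cells were 509, 531 and 489 CPM in the 3 libraries, and 368, 554 and 463 CPM with tunicamycin. In XBP1 knockdown cells they were 174, 124 and 127 CPM with vehicle and 123, 172 and 165 CPM with tunicamycin. All 6 knockdown libraries lay below all 6 control libraries, and within either genotype the vehicle and tunicamycin libraries overlapped. The log2 fold change of H19, knockdown against control, was −1.85 (SE 0.0984) with vehicle and −1.59 (SE 0.125) with tunicamycin, or 3.61-fold and 3.02-fold lower. H19 was chosen on these values. The summed epithelial markers were also lower, at 131 to 214 CPM in knockdown libraries, below the 311 to 489 CPM of control libraries. Most of that sum was KRT18, at 108 to 179 CPM, with KRT8 at 17.8 to 31.0 CPM. Of the 7 markers tested, KRT8, KRT18 and KRT19 were called lower under either treatment and the rest were not called. Over all genes, 3.03% were lower with vehicle and 8.55% with tunicamycin. The part of the markers in the H19 values was not tested. Between the 2 treatments, the H19 change in the knockdown differed by 0.24 (SE 0.189) on the log2 scale.

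In CARM1 knockout cells, the H19 counts were 2, 1 and 3 with vehicle and 3, 11 and 0 with tunicamycin, out of the 4423 to 7296 counts per library that H19 reached in control cells. Summed over 3 libraries, 6 counts stood against 21077 with vehicle and 14 against 17233 with tunicamycin. The level was thus 2843-fold lower with vehicle (95% exact interval 1306 to 7748) and 1216-fold lower with tunicamycin (724 to 2224), where the intervals cover counting error only. The adjusted p was 2.46e-18 and 4.48e-14 (edgeR), but H19 passed the low-count filter through control and knockdown libraries alone. These comparisons also share their control libraries with the knockdown comparisons on which H19 was chosen, so these p-values carry no weight. H19 lost more of its counts than any other tested gene of the set.

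**Figure D1:**
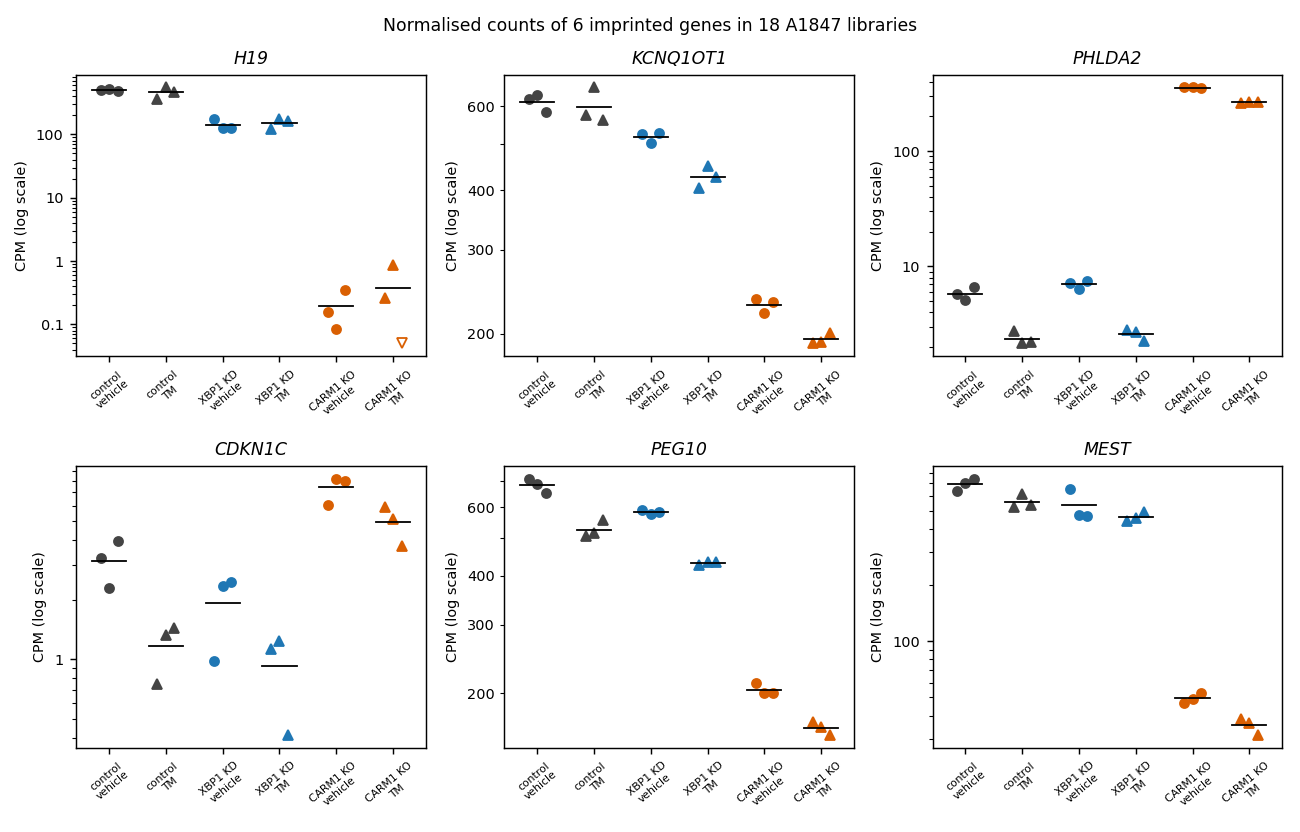
Level of 6 imprinted genes in CPM (log scale, 1 panel per gene) in each of the 18 libraries. Circles are vehicle and triangles tunicamycin (TM), black control, blue XBP1 knockdown and orange CARM1 knockout, bars are means of 3 libraries, and an open triangle pointing down marks a library with 0 counts, drawn at the lower edge. The knockout libraries hold 352 to 357 CPM of PHLDA2 with vehicle, where control holds 5.16 to 6.56 CPM, and lie below all others for H19, KCNQ1OT1, PEG10 and MEST.

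Tunicamycin left H19 where it was within the spread of the libraries. In control cells the log2 fold change was −0.13 (SE 0.0995, 95% interval −0.32 to 0.07, adjusted p = 0.333). Without tunicamycin replicate 2, the highest of the control libraries, it was −0.29 with an adjusted p of 0.0076. In knockdown cells it was 0.10 (SE 0.123), given as a description. At 0 to 11 counts in knockout libraries, no tunicamycin response of H19 was detectable at this depth.

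IGF2, the fetal growth factor that shares its control region with H19, was barely detected. It had 2, 1 and 5 counts in vehicle-treated control libraries, 4, 1 and 1 in tunicamycin-treated control libraries, 8, 2 and 6 and then 1, 4 and 6 in knockdown libraries, and 6, 14 and 8 and then 17, 5 and 12 in knockout libraries. The knockout libraries lay above the control libraries under either treatment. Over 3 libraries, 28 counts stood against 8 with vehicle, a ratio of 4.32 (95% exact interval 1.92 to 11), and 34 against 6 with tunicamycin, a ratio of 5.74 (2.38 to 16.7). Both intervals cover counting error only and are not read as a test. The log2 fold changes were 2.03 (SE 0.659, adjusted p = 0.0116) and 2.46 (SE 0.713, adjusted p = 0.0059). IGF2 passed the low-count filter through the knockout libraries alone, so these p-values carry no weight. Without knockout vehicle replicate 2, the first was 1.70 with an adjusted p of 0.0692. Of the genes annotated over IGF2, INS-IGF2, IGF2-AS and MIR483 had 0 counts in every library. ENSG00000240801, a non-coding RNA gene that overlaps IGF2 by 844 bases on the same strand, had 0 or 1 count in control, 0 to 2 in knockdown and 2 to 12 in knockout libraries, so reads of the pair may not be told apart.

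The other long non-coding RNA of the chromosome 11 cluster, KCNQ1OT1, followed H19 in direction and not in size. It stood at 621, 633 and 584 CPM in vehicle-treated control, 526, 503 and 526 CPM in knockdown and 236, 221 and 233 CPM in knockout libraries. With tunicamycin the values were 576, 658 and 562 CPM in control, 405, 450 and 427 CPM in knockdown and 191, 192 and 201 CPM in knockout libraries. No group overlapped another genotype under the same treatment. Against control, the knockout changed it by −1.46 (SE 0.0470, adjusted p = 2.15e-13) with vehicle and −1.62 (SE 0.0569, adjusted p = 1.44e-12) with tunicamycin on the log2 scale. The knockdown values were −0.25 (SE 0.0464) and −0.49 (SE 0.0577). Tunicamycin lowered KCNQ1OT1 by 1.15-fold in knockout cells (log2 −0.21, SE 0.0402, adjusted p = 2.44e-04) and by 1.22-fold in knockdown cells (log2 −0.29, SE 0.0447, adjusted p = 9.14e-05), whereas the value in control cells was −0.02 (SE 0.0609, adjusted p = 0.821). The difference of the response between knockout and control cells, −0.20 (SE 0.0774, adjusted p = 0.0639), missed the threshold. KCNQ1, which KCNQ1OT1 crosses in antisense, had 0 to 4 counts in all libraries.

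The protein-coding genes that KCNQ1OT1 can silence, CDKN1C and PHLDA2, were higher in knockout cells. PHLDA2, a pleckstrin homology protein that restrains placental growth, had 5.72, 5.16 and 6.56 CPM in vehicle-treated control libraries and 356, 357 and 352 CPM in vehicle-treated knockout libraries. The log2 fold change was 5.88 (SE 0.0722, adjusted p = 4.95e-18), or 58.9-fold. With tunicamycin, 2.74, 2.15 and 2.20 CPM in control libraries stood against 260, 266 and 268 CPM in knockout libraries, a log2 fold change of 6.81 (SE 0.0811, adjusted p = 1.51e-17), or 112-fold. Knockdown libraries held 7.15, 6.31 and 7.44 CPM with vehicle and 2.82, 2.72 and 2.23 CPM with tunicamycin, which overlapped the control libraries in both cases.

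CDKN1C, which encodes the cyclin-dependent kinase inhibitor p57, had 3.25, 2.28 and 3.95 CPM in vehicle-treated control libraries and 6.06, 8.22 and 8.02 CPM in the knockout. With tunicamycin, 0.748, 1.32 and 1.44 CPM stood against 5.92, 5.16 and 3.73 CPM. The knockout libraries lay above the control libraries in either case, with log2 fold changes of 1.17 (SE 0.216, adjusted p = 1.53e-04) and 2.06 (SE 0.283, adjusted p = 9.39e-06). Knockdown libraries held 0.979, 2.34 and 2.46 CPM with vehicle and 1.13, 1.23 and 0.414 CPM with tunicamycin, and overlapped those of control cells. Their log2 fold changes were −0.72 (SE 0.324) and −0.34 (SE 0.465).

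Of the tested genes of the set, this pair had the largest falls with tunicamycin in control cells, where PHLDA2 fell 2.44-fold (log2 −1.29, SE 0.207, adjusted p = 8.47e-05) and CDKN1C 2.66-fold (log2 −1.41, SE 0.322, adjusted p = 0.00194). In knockout cells, where both started higher, PHLDA2 fell 1.31-fold (log2 −0.39, SE 0.0338, adjusted p = 3.7e-09) and CDKN1C 1.46-fold (log2 −0.55, SE 0.183, adjusted p = 0.0208). The CDKN1C call in knockout cells was lost with DESeq2 (adjusted p = 0.0554), with all libraries in one fit (adjusted p = 0.102), and without knockout tunicamycin replicate 3 or knockout vehicle replicate 2 or 3. In knockdown cells PHLDA2 fell 2.69-fold (log2 −1.43, SE 0.189, adjusted p = 1.95e-05), and CDKN1C had a log2 fold change of −1.06 (SE 0.452, adjusted p = 0.0799). The response of PHLDA2 differed between knockout and control cells by 0.88 on the log2 scale (SE 0.150, adjusted p = 1.89e-04). For CDKN1C the same difference was 0.84 (SE 0.374, 95% interval 0.11 to 1.58, adjusted p = 0.118).

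**Figure D2:**
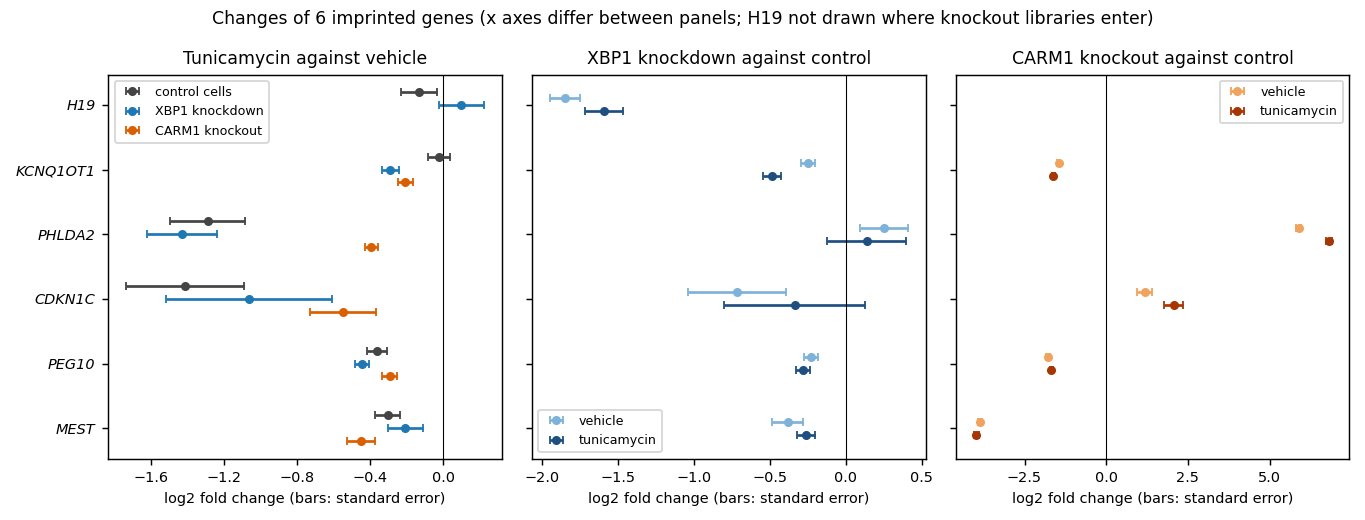
Log2 fold changes of 6 imprinted genes with their standard errors, for tunicamycin against vehicle in each genotype (left), XBP1 knockdown against control (middle, a description without a test) and CARM1 knockout against control (right). H19 is left out wherever knockout libraries enter, since its counts there were 0 to 11. PHLDA2 and CDKN1C lie farthest left under tunicamycin in control and knockdown cells, H19 farthest left under knockdown, and PHLDA2 (5.88 and 6.81) farthest right in the knockout.

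PEG10 and MEST, both expressed from the paternal copy on chromosome 7, were abundant in control cells and lower in the knockout. PEG10, a retrotransposon-derived gene needed for placenta formation, had 709, 686 and 650 CPM in vehicle-treated control, 591, 576 and 584 CPM in knockdown and 212, 201 and 200 CPM in knockout libraries. With tunicamycin it had 507, 514 and 556 CPM in control, 426, 434 and 435 CPM in knockdown and 169, 164 and 157 CPM in knockout libraries. The 3 genotypes did not overlap under either treatment. Against control, the knockout changed PEG10 by −1.78 (SE 0.0476, adjusted p = 2.19e-14) and −1.68 (SE 0.0489, adjusted p = 1.48e-13) on the log2 scale, and the knockdown values were −0.23 (SE 0.0458) and −0.28 (SE 0.0455). Tunicamycin lowered PEG10 in all 3 genotypes, by 1.29-fold in control (log2 −0.36, SE 0.0545, adjusted p = 4.25e-05), 1.22-fold in knockout (adjusted p = 5.1e-06) and 1.36-fold in knockdown cells (adjusted p = 1.5e-07), and the response in knockout cells differed from that in control cells by 0.05 (95% interval −0.08 to 0.19).

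MEST, a member of the alpha/beta hydrolase family expressed in mesoderm, had 635, 700 and 743 CPM in vehicle-treated control libraries and 46.8, 49.3 and 52.8 CPM in knockout libraries. This was 14.4-fold lower (log2 −3.85, SE 0.0669, adjusted p = 1.34e-16). With tunicamycin, 523, 613 and 535 CPM stood against 38.2, 36.4 and 31.5 CPM, 15.7-fold lower (log2 −3.97, SE 0.0770, adjusted p = 1.46e-15). Knockdown libraries held 657, 475 and 469 CPM with vehicle, where replicate 1 lay within the control range, and 443, 458 and 493 CPM with tunicamycin, below all control libraries. Their log2 fold changes were −0.38 (SE 0.102) and −0.26 (SE 0.0586). Tunicamycin lowered MEST 1.23-fold in control cells (adjusted p = 0.00162) and 1.36-fold in knockout cells (adjusted p = 5.64e-05), and the value in knockdown cells was −0.21 on the log2 scale (SE 0.0955, adjusted p = 0.105). Reads of PEG10 and of SGCE, which overlap by 248 bases in antisense, and of MEST and its antisense partners MESTIT1 and COPG2 may not be told apart, as the strand setting of the counting is not given in the sources used here. MESTIT1 had 1 to 7 counts in all libraries and COPG2 36 to 48 counts in control libraries.

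The last 3 genes stayed at the detection limit. DLK1, a membrane protein of the Notch ligand family that keeps progenitor cells undifferentiated, had 1, 1 and 4 counts in vehicle-treated control libraries, 10, 3 and 7 in the knockdown and 0 in all 6 knockout libraries. With tunicamycin it had 2, 0 and 1 counts in control and 7, 6 and 4 in knockdown libraries, so that the knockdown libraries lay above the control libraries there and overlapped them with vehicle. MEG3, the long non-coding RNA made from the other parental copy of the DLK1 cluster, had 0 to 4 counts in any library. PEG3, a zinc finger protein, had 0 or 1 count in any library, and ZIM2, which shares its exons on the same strand, had 0 throughout. At this depth no difference was detectable for MEG3 and PEG3.

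**Figure D3:**
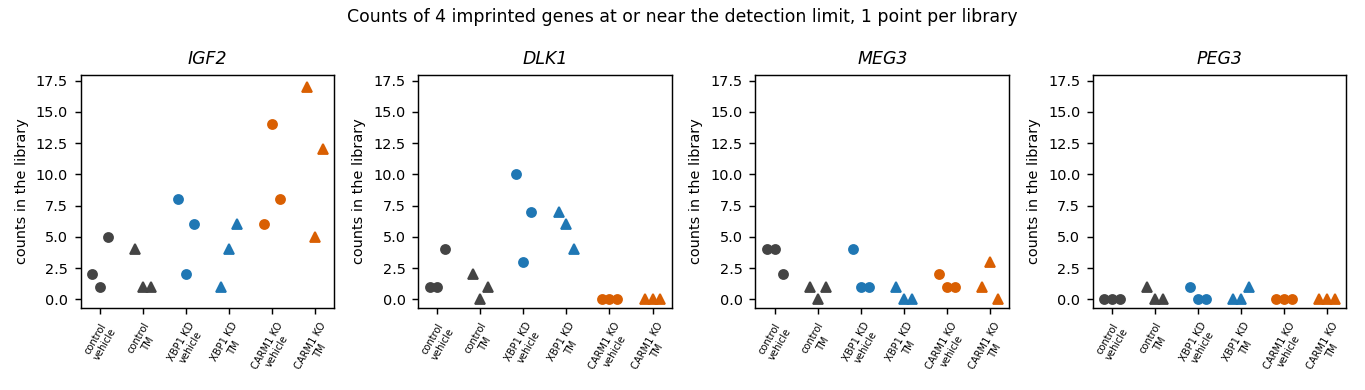
Counts per library (linear axis, 1 point per library) of the 4 genes of the set near the detection limit, in the colours and symbols used for the levels above. IGF2 reaches 17 counts in a knockout library, DLK1 is at 0 in all 6 knockout libraries and at 3 to 10 in knockdown libraries, MEG3 does not pass 4 counts and PEG3 does not pass 1.

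Counted over the set, each of the 7 tested genes was called in the knockout under either treatment, 3 higher (PHLDA2, CDKN1C and IGF2) and 4 lower (H19, MEST, PEG10 and KCNQ1OT1). Across all genes tested 74.4% were called with vehicle (37.5% higher and 36.9% lower) and 75.2% with tunicamycin (38.4% higher and 36.8% lower), so a call in this comparison sets a gene apart from few others. IGF2 reached the filter's minimum through knockout libraries alone and H19 through control and knockdown libraries alone, so that their calls were favoured by the filter. Without them, 2 of 5 were higher and 3 lower under either treatment. The median log2 fold change of the 7 was −1.46 with vehicle and −1.62 with tunicamycin, beside −0.03 and −0.02 over all genes. Tunicamycin lowered 4 of the 7 in control cells (CDKN1C, PHLDA2, PEG10 and MEST), 5 in knockout cells (these and KCNQ1OT1) and 3 in knockdown cells (KCNQ1OT1, PHLDA2 and PEG10), and raised 0 in any genotype by edgeR. Of all genes, 41.9% in control, 39.5% in knockout and 38.3% in knockdown cells were called, with 19.9%, 18.8% and 19% lowered and 22%, 20.6% and 19.2% raised. The median response of the 7 was −0.30, −0.29 and −0.38 on the log2 scale in these genotypes, beside a median of 0 over all genes. At an unadjusted p under 0.05, and with DESeq2, 0 of the 7 were higher in any genotype. In the knockdown, H19, KCNQ1OT1, PEG10 and MEST were called lower and 0 higher under either treatment, where 3.03% of all genes were lower and 2.07% higher with vehicle (5.10% in either direction), and 8.55% lower and 6.99% higher with tunicamycin (15.5%). Since the set was chosen on this contrast, nothing is read from that count. The response to tunicamycin differed from control for 1 of the 7 in knockout cells (22.9% of all genes) and for 0 in knockdown cells by edgeR (2.04% of all genes), where 1 had an unadjusted p under 0.05 and 1, KCNQ1OT1, was called by DESeq2.

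Other genes within 1 Mb of the H19 start were examined for shared changes. Of the 14 tested, 9 were higher and 3 lower in vehicle-treated knockout cells (median log2 fold change 0.92), and 11 were higher and 1 lower with tunicamycin (median 1.16), beside 37.5% and 38.4% higher and 36.9% and 36.8% lower over all genes. DESeq2 called 9 higher and 1 lower with vehicle. TH and KRTAP5-2 reached the filter's minimum in knockout libraries alone and IFITM10 in the others alone, and without these 3, 7 of 11 were higher and 2 lower with vehicle. The higher genes included TOLLIP (1.30, SE 0.0624), MOB2 (1.18, SE 0.153), CTSD (0.73, SE 0.0639) and CD81 (0.93, SE 0.0492). TH, which encodes tyrosine hydroxylase and starts 167 kb from H19 beyond IGF2, had 0 or 1 count in control libraries and 244 to 411 in knockout libraries. MRPL23, the nearest tested gene at 57.3 kb, had a log2 fold change of −0.80 (SE 0.287) with vehicle and 0.28 (SE 0.401) with tunicamycin, the latter not called. In the knockdown with vehicle 0 of the 14 were called by edgeR or DESeq2 and 0 had an unadjusted p under 0.05, with a median of −0.05, and with tunicamycin 1 was higher and 2 lower, with a median of −0.02. Only 5.10% of all genes were called with vehicle and 15.5% with tunicamycin, so few calls among 14 genes say little of the region. For CDKN1C and PHLDA2, 17 neighbours had a median of 0.32 in vehicle-treated knockout cells, with 8 higher and 5 lower.

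**Figure D4:**
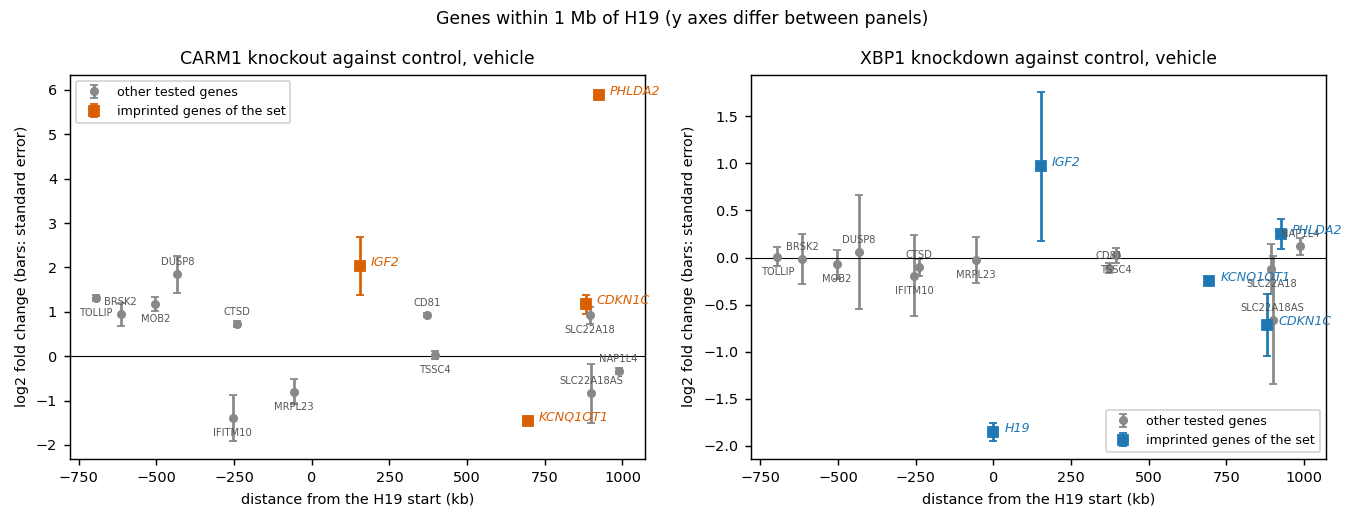
Log2 fold changes (bars: standard error) of the tested genes within 1 Mb of H19 by the distance of their start from that of H19 in kb, in vehicle-treated knockout (left) and knockdown cells (right). Squares are genes of the set. Genes with at most 3 counts in every library of a compared group, such as H19 in the knockout and TH and KRTAP5-2 in both panels, are not drawn. In the knockdown H19, which was chosen on this contrast, lies at −1.85 while the neighbours scatter about 0, and in the knockout PHLDA2 stands highest at 5.88.

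The genes whose log2 CPM followed H19 most closely over the 18 libraries, out of 12503, were TIMP3 (Pearson r = 0.995), CACNA2D1 (0.993) and CRABP2 (0.992). As the knockout libraries form a cluster of their own, r was also taken over the 12 control and knockdown libraries, where it was 0.944, 0.933 and 0.913. For H19 these 12 still split into control (368 to 554 CPM) and knockdown (123 to 174 CPM), the contrast it was chosen on. This r therefore does not set group differences aside. The closest genes for PHLDA2 were SYNCRIP, TTL and AHNAK (0.953, 0.975 and 0.925 over the 12), for MEST ARHGAP8, ACTA2 and TCF4 (0.709, 0.860 and 0.790) and for PEG10 FGF11, ABI2 and MSL1 (0.946, 0.944 and 0.981). For KCNQ1OT1 they were DONSON, BPNT2 and FGF11 (0.887, 0.865 and 0.843), for CDKN1C HOXA10, PHF19 and KATNAL1 (0.863, 0.835 and 0.815), and for IGF2 C2orf76, PPTC7 and ABHD18 (0.654, 0.817 and 0.768). These values share libraries and groups and are descriptions.

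The wider list of 50 imprinted genes outside the set, 33 of them tested, split in the knockout: 16 were higher and 13 lower with vehicle, and 18 higher and 13 lower with tunicamycin, with medians of 0.02 and 0.36, where 37.5% and 38.4% of all genes were higher and 36.9% and 36.8% lower. ATP10A, FAM50B, DIRAS3 and WT1 passed the filter through knockout libraries alone, and MKRN3, ZNF597 and NPAP1 through the others alone. Without these 7, 12 of 26 were higher and 11 lower with vehicle (median −0.11), and 14 and 11 with tunicamycin (median 0.32). FAM50B had 0 to 2 counts in control and 115 to 182 in knockout libraries, and ATP10A, a phospholipid flippase gene, had 0 in all control and 93 to 171 in knockout libraries. SGCE, which shares its promoter region with PEG10, rose by 2.51 (SE 0.164, adjusted p = 1.3e-09) on the log2 scale with vehicle, opposite to PEG10. PPP1R9A in the same cluster changed by −2.52 (SE 0.116), GRB10, an adaptor that restrains insulin signalling, by −2.14 (SE 0.238), and the tumour suppressor RB1 by −1.87 (SE 0.116). With tunicamycin in control cells 7 rose and 6 fell, with a median of 0.03, led by GRB10 (1.97, SE 0.126), HM13 (1.00, SE 0.0611) and SGCE (0.65, SE 0.221) upward and NDN (−0.87, SE 0.0731), SNURF (−0.86, SE 0.325) and INPP5F (−0.84, SE 0.146) downward. In knockout cells 6 rose and 6 fell, and in knockdown cells 5 rose and 5 fell. Tunicamycin raised 22% and lowered 19.9% of all genes in control cells. These shares were 20.6% and 18.8% in knockout cells and 19.2% and 19% in knockdown cells. In the knockdown 0 were higher (by DESeq2 too, 1 at an unadjusted p under 0.05) and 2 lower with vehicle by edgeR, PLAGL1 (−0.59, SE 0.119) and IGF2R (−0.30, SE 0.0803), and 2 were higher and 4 lower with tunicamycin. The shares over all genes were 2.07% and 6.99% higher and 3.03% and 8.55% lower under these treatments.

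Of 16 genes of the IGF system tested, 6 were higher and 10 lower in the knockout under either treatment, with medians of −1.10 and −1.07, where 74.4% and 75.2% of all genes were called. IGFBP1, IGFBP3 and IRS2 passed the filter through knockout libraries alone, and IGFBP2, LIN28B and IGF2BP3 through the others alone. Without these 6, 3 of 10 were higher and 7 lower under either treatment. Among those 10, HMGA2 lay at 1842 to 2020 CPM in control and 90.4 to 239 CPM in knockout libraries. IGFBP4 went the other way, from 2.58 to 5.49 CPM to 45.4 to 111 CPM. The genes named next are the 6 set aside, so their calls were favoured by the filter. Lower were the mRNA-binding proteins LIN28B, with 1788 to 2129 counts in control and 0 to 18 in knockout libraries, and IGF2BP3 (−7.33, SE 0.222), which binds IGF2 mRNA. The binding protein IGFBP2 went from 70 to 180 counts to 0 or 1. Higher were IGFBP3, from 0 to 9 counts to 1963 to 2845, the insulin receptor substrate IRS2, from 3 to 14 counts to 1665 to 2269, and IGFBP1, from 0 to 2 counts to 31 to 80. With tunicamycin 2 rose and 4 fell in control cells, 5 and 6 in knockout cells, and 2 and 4 in knockdown cells. Of all genes, 22% rose and 19.9% fell in control, 20.6% and 18.8% in knockout, and 19.2% and 19% in knockdown cells. In the knockdown 0 rose (by edgeR, by DESeq2 and at an unadjusted p under 0.05) and 1 fell with vehicle, and 1 rose and 2 fell with tunicamycin. The shares over all genes were 2.07% and 6.99% higher and 3.03% and 8.55% lower under these treatments.

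Factors that keep or erase imprints were mostly lower in the knockout: of 15 tested, 3 were higher and 11 lower with vehicle, and 5 higher and 9 lower with tunicamycin, with medians of −1.10 and −0.96, beside 37.5% and 38.4% higher and 36.9% and 36.8% lower over all genes. The methylcytosine oxidases TET1 (−4.23, SE 0.129) and TET2 (−2.33, SE 0.102) and the chromatin remodeller HELLS (−1.90, SE 0.0575) fell most with vehicle. CTCFL, the germ-line paralog of CTCF, had 15 to 25 counts in control and 1016 to 1608 in knockout libraries (log2 6.33, SE 0.117), and the maintenance methyltransferase DNMT1 was 0.43 higher (SE 0.0462). Tunicamycin lowered 9 and raised 0 of the 15 in control cells and lowered 9 and raised 0 in knockdown cells by edgeR, beside 19.9% and 19% of all genes lowered, and 0 were higher there by DESeq2 or at an unadjusted p under 0.05. In knockout cells 4 rose and 4 fell, beside 20.6% and 18.8% of all genes. DNMT3B changed by −1.18 (SE 0.133) in control and by 1.03 (SE 0.120) in knockout cells, and these responses differed by 2.19 (SE 0.187, adjusted p = 3.7e-08). In the knockdown 1 was higher and 0 lower with vehicle by edgeR and DESeq2 (3 lower at an unadjusted p under 0.05), EHMT2 (0.23, SE 0.0615), and 1 was higher and 1 lower with tunicamycin, EHMT2 (0.43, SE 0.0809) and SMCHD1 (−0.27, SE 0.0546). The shares over all genes were 2.07% and 6.99% higher and 3.03% and 8.55% lower under these treatments. Setting genes that had 0 counts throughout a group to their bound at 3 counts moved none of the list medians in the knockout. At most 3 genes of a list were so set, and none of the set or of the maintenance factors, so this says little of the medians.

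**Figure D5:**
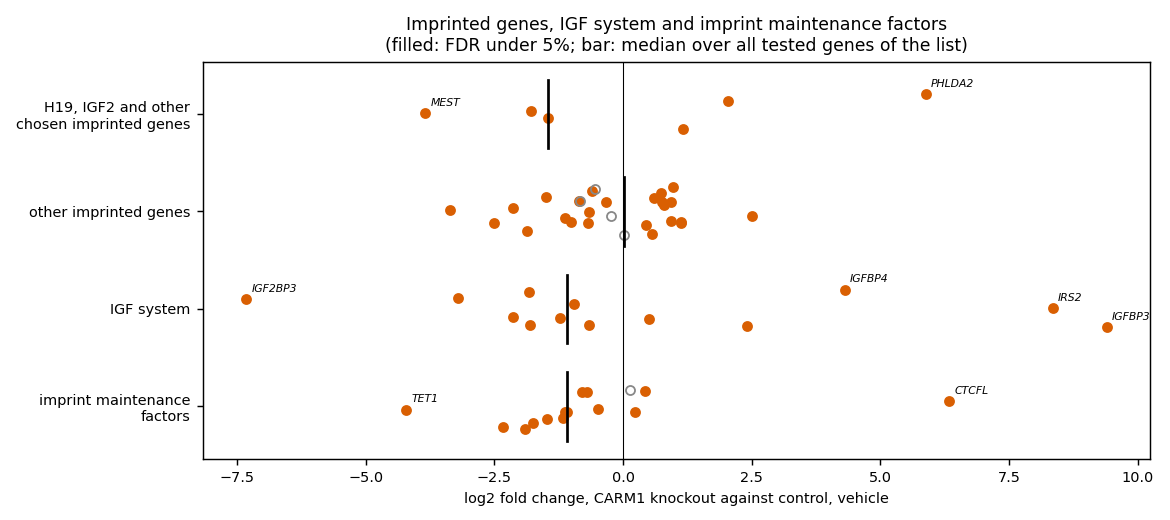
Log2 fold change in vehicle-treated CARM1 knockout against control cells of the tested genes of the set and of the 3 wider lists, 1 point per gene with vertical scatter for legibility. Filled points were called at an FDR of 5%, and black bars are medians over all tested genes of a list (−1.46, 0.02, −1.10 and −1.10). Genes with at most 3 counts in every library of a compared group, H19, ATP10A, DIRAS3, FAM50B, WT1, ZNF597, IGFBP1, IGFBP2 and LIN28B, are not drawn. The wider imprinted list lies on both sides of 0.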

How the data were processed

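The RNA was sequenced from the 3′ end as 75 nt single reads. The authors aligned them to hg19 with bowtie2, estimated counts per Ensembl gene with RSEM (version 1.2.3 in the submitters' processing notes) and deposited the expected counts without normalization. Their published methods name a different RSEM version. The Ensembl release and the strand setting are not given in the sources used here. The values were whole numbers, and 0 columns were left unmapped. Symbols were found for 55501 genes in GENCODE for GRCh37.

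Counts were rounded and tested with edgeR 4.0.16 under R 4.3.3 (with limma 3.58.1), using filterByExpr with a minimum count of 10 over all libraries, TMM, quasi-likelihood F tests on the compared groups alone, and Benjamini-Hochberg adjustment over all genes tested, with calls at an FDR of 5%. The SE was taken as the absolute log2 fold change over the root of its F statistic. CPM uses TMM-scaled totals, and log2 CPM a prior count of 2. CPM values of 3′-end reads are not per length, so levels were compared within a gene only. With 3 libraries against 3, an exact permutation test cannot go below 0.1 and none was run. Depth was 9367462 to 13917212 counts per library (median 12899158). Chi-square per degree of freedom between replicates was 1.84 to 6.89, so replicates differed by more than counting error.

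The 10 genes and all lists were chosen with earlier results of these data known. Named genes were all 10, CARM1 and XBP1, up to 3 called genes with the largest rise and fall per list (mean log2 CPM of at least 1), neighbours within 1 Mb of H19, genes overlapping the 10, and the 3 genes of highest Pearson r. Alternatives were RLE size factors, DESeq2 1.42.0, no filter, a replicate block, a joint fit of all libraries, and each library left out in turn. Counts of knockout calls without genes that reached the filter's minimum on only one side of that comparison were added after seeing the data. The scripts were tested on simulated data.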

Additional observations from a re-analysis of the deposited data

Results flagged for a closer look

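The tunicamycin response of PHLDA2 differed between CARM1 knockout and control cells by 0.88 on the log2 scale (SE 0.150, edgeR interaction term, adjusted p = 1.89e-04, n = 3 libraries per group). Of all genes tested, 22.9% were called in this term, so the call alone does not set PHLDA2 apart. PHLDA2 fell 2.44-fold with tunicamycin in control cells, from a level of 5.81 ± 0.707 to 2.36 ± 0.330 CPM, and 1.31-fold in knockout cells, from 355 ± 2.62 to 264 ± 4.21 CPM (SD, n = 3 each). The difference kept its direction and its call in each fit without 1 library, with values from 0.85 to 1.07. The level before treatment differed 58.9-fold between the genotypes, and its part in the difference was not tested.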

How the results depend on the processing

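With RLE size factors, DESeq2, no filter, all libraries in one fit or a replicate block, 42 of 45 counts of the set's genes called stayed within 1.5 times the value reported. The exceptions were 5 in place of 3 genes lowered by tunicamycin in knockdown cells with no filter (CDKN1C and MEST added), and 1 in place of 0 genes with a different response in knockdown cells, with DESeq2 (KCNQ1OT1) and with no filter (H19). As H19 was chosen on the knockdown libraries, nothing is read from its call there. Calls over all genes in the knockdown with vehicle went from 883 to 1378 with no filter and 1420 with all libraries in one fit, and those of the knockdown interaction from 353 to 732 with no filter. With each library left out in turn, the knockdown with vehicle called 435 to 1234 genes, and 1 to 4 genes of the set (1 without knockdown or control replicate 2, 2 without control replicate 1). The knockdown with tunicamycin called 1523 (without control replicate 3) to 2426 genes instead of 2691, and 1743 without knockdown replicate 3. The knockout interaction called 1 to 2 genes of the set, CDKN1C (1.10) being added without control vehicle replicate 2. The sign changed for some low counts and small changes: the tunicamycin response of IGF2 ran from −1.19 to 0.49 in control, −0.28 to 0.54 in knockout and −0.93 to 0.13 in knockdown cells, that of KCNQ1OT1 in control cells from −0.10 to 0.012, that of H19 in knockout cells from −0.47 to 1.64, and the knockout differences from −0.26 to 1.40 for IGF2 and −0.35 to 1.78 for H19. The cause was not tested. Samples of the same replicate number did not deviate together (r = −0.0480 to 0.0387 over 21 pairs), so the numbers do not pair them. With the replicate block, calls in vehicle-treated knockdown cells were 789, and no call of a gene of the set changed. Counts of 0 to 17 limit what can be said of IGF2, DLK1, MEG3 and PEG3, and of H19 in knockout cells.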
